A study of Homo sapiens with 20 samples.

Results

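Mitosis genes encode the proteins that condense chromosomes, build the spindle, check chromosome attachment, start anaphase and split the cell. Their transcripts are held low by the DREAM complex in resting and G1 cells and build up in G2 and M phase, when the MuvB core works with B-MYB and then FOXM1, often at promoters that carry a CCAAT box and a cell cycle genes homology region. In a bulk culture their level therefore follows how many cells are near division as well as how much of each transcript such a cell holds. Pericytes are the mural cells of small vessels, and PDGF-BB is a mitogen and attractant that acts on them through the receptor PDGFRB.

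The 40 mitosis genes described here were a list taken by symbol from the count table, out of 58676 genes in that table. The rule for membership used no measured value, but the list was drawn up with earlier results of these data known. All 40 passed the filter on low counts and stood among the 12111 genes tested. They were measured by RNA sequencing of 1 immortalized human pericyte line, wild type per its labels, with 5 libraries in each of 4 groups. One group received recombinant human eNAMPT, the secreted form of an NAD salvage enzyme, at 500 ng/mL. The others received recombinant human PDGF-BB at 20 ng/mL, both agents at those doses, or neither as the control, and all treatments lasted 4 hours. The cells were kept in medium with serum, and how the line was immortalized and whether serum was withdrawn before treatment are not given in the sources used here.

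Gene counts ranged from 2894878 to 4011066 per library, and the mitosis genes took between 0.803% and 0.986% of them. Of 10 pericyte markers 9 were tested, DES was near 0, and their summed level was between 321 and 389.5 CPM (counts scaled to 1e+06 per library) with eNAMPT, 359 and 409 CPM with PDGF-BB, 363 and 444 CPM with both agents, and 341 and 401 CPM in control libraries. The 5 endothelial markers together gave at most 8.26 CPM in any library, the 5 leukocyte markers at most 5.94, the 5 epithelial markers at most 4.93 and the 5 neural or glial markers at most 2.79. Mitochondrial genes took 8.28 to 8.99% of gene counts with PDGF-BB and 8.35 to 8.83% with both, against 8.38 to 9.38% with eNAMPT and 8.49 to 9.71% in control libraries. That share averaged lower in the groups with PDGF-BB, where the mean level of the mitosis genes was also lower, and its part in the results was not tested.

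All mitosis genes were well above the detection limit, and the lowest count of any of them in any library was 63. Their mean level was 129.7 CPM at the median, against 28.2 CPM for the genes tested. TOP2A, the topoisomerase that untangles sister chromatids, was the highest at 2057 CPM and supplied 22.8% of the summed level of the 40 genes, and CENPA, the centromeric histone, was the lowest at 31.9 CPM. Scaled to exon length, PTTG1 (the securin that holds separase inactive) reached 336 CPM per kilobase, TOP2A 320 CPM per kilobase and UBE2C (the ubiquitin-conjugating enzyme of the anaphase-promoting complex) 281 CPM per kilobase. The lowest on that scale was KIF14, a kinesin of cytokinesis, at 7.25 CPM per kilobase. The labels do not say whether reads cover whole transcripts, which the scaling to length assumes.

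Most mitosis genes had negative log2 fold changes with PDGF-BB (34 of 40, against 52% of all tested genes), and a minority passed as lower. Over both settings, without and with eNAMPT, 4 of 40 fell and none rose with PDGF-BB at an adjusted p under 0.05 (edgeR quasi-likelihood, Benjamini-Hochberg over all tested genes), and 1.01% of all tested genes fell and 2.96% rose by the same rule. The 4 were CENPF, a large protein of the outer kinetochore, HMMR, a microtubule-binding protein of the spindle poles, TOP2A, and ASPM, which focuses microtubule minus ends at the poles. Their levels with PDGF-BB were between 0.836 (CENPF) and 0.89 (TOP2A) times those without it. In bulk RNA, fewer cells in mitosis and less RNA per mitotic cell cannot be told apart. No call was left when libraries were scaled by their spike-in counts in place of gene counts, with adjusted p of 0.499 for CENPF, 0.578 for HMMR, 0.789 for TOP2A and 0.708 for ASPM. The log2 fold changes were then further from 0, at -0.30 for CENPF, -0.29 for HMMR, -0.22 for TOP2A and -0.25 for ASPM. The median over all tested genes was then -0.07. Spike-ins took 1.61 to 2.91% of gene and spike-in counts with PDGF-BB and 1.59 to 2.71% with both agents. They took 1.75 to 2.13% with eNAMPT and 1.57 to 2.38% in control libraries. The part of this spread in the lost calls was not tested.

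CENPF (chr1:214603195-214664588, plus strand, GRCh38) showed the clearest difference. In the order of replicate numbers, here and below, it had 595, 572, 549, 557 and 538 CPM with eNAMPT, 492, 522, 417, 488 and 429 with PDGF-BB, 506, 525, 381, 474 and 384 with both, and 532, 574, 536, 536 and 535 in control libraries. All 10 libraries with PDGF-BB lay below all 10 without it, and this held for no other mitosis gene, against 0.0578% of all tested genes lower without overlap. Pooled over both settings, the log2 fold change came to -0.26 (SE 0.055, adjusted p = 0.00166). Leaving out any 1 library kept its adjusted p between 0.000396 and 0.00655.

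HMMR (chr5:163460203-163491945, plus strand) had 206, 177, 166, 196 and 171 CPM with eNAMPT, 166, 140.1, 130.4, 154 and 134 with PDGF-BB, 146, 173, 129.7, 164 and 148 with both, and 152, 156, 169, 186 and 175 in control libraries. Every library with PDGF-BB lay below the mean of those without it, but the groups overlapped. Control libraries 1 and 2 lay below PDGF-BB library 1 and combination libraries 2 and 4, and control library 1 also lay below PDGF-BB library 4. Control library 3 and eNAMPT libraries 3 and 5 lay below combination library 2, and eNAMPT library 3 was level with PDGF-BB library 1. The pooled change was -0.24 on the log2 scale (SE 0.062, adjusted p = 0.0146), and the adjusted p stayed between 0.00644 and 0.0469 when 1 library was left out.

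TOP2A (chr17:40388516-40417950, minus strand) had 2254, 2021, 2158, 2390 and 2015 CPM with eNAMPT, 1950, 1927, 2072, 2097 and 1704 with PDGF-BB, 1932, 1831, 1987, 2039 and 1840 with both, and 2063, 2087, 2115, 2559 and 2106 in control libraries. Control library 4 was far above the other control libraries, and all 10 libraries with PDGF-BB lay under the mean of those without it. The pooled value was -0.17 on the log2 scale (SE 0.046, adjusted p = 0.0237). The call was lost without eNAMPT library 1 (adjusted p = 0.0557), eNAMPT library 4 (0.0656), PDGF-BB library 5 (0.0574) or control library 4 (0.0733).

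ASPM (chr1:197084128-197146694, minus strand) had 286, 309.5, 267, 296 and 262 CPM with eNAMPT, 269, 278, 212, 263 and 216 with PDGF-BB, 275, 288, 197, 261 and 217 with both, and 296, 291, 276, 296 and 281 in control libraries. In both groups with PDGF-BB the libraries numbered 3 and 5 were far below the rest, while libraries 1 and 2 reached the level of those without PDGF-BB, so the groups overlapped. The pooled value came to -0.21 (SE 0.062, adjusted p = 0.0417), with 9 of 10 libraries below the mean without PDGF-BB. That call was the least stable of the 4. It was lost in 10 of 20 fits that each left out 1 library: eNAMPT 1, 2 or 4, PDGF-BB 3 or 5, both agents 3 or 5, and control 1, 2 or 4, with adjusted p between 0.0636 and 0.116.

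**Figure D1:**
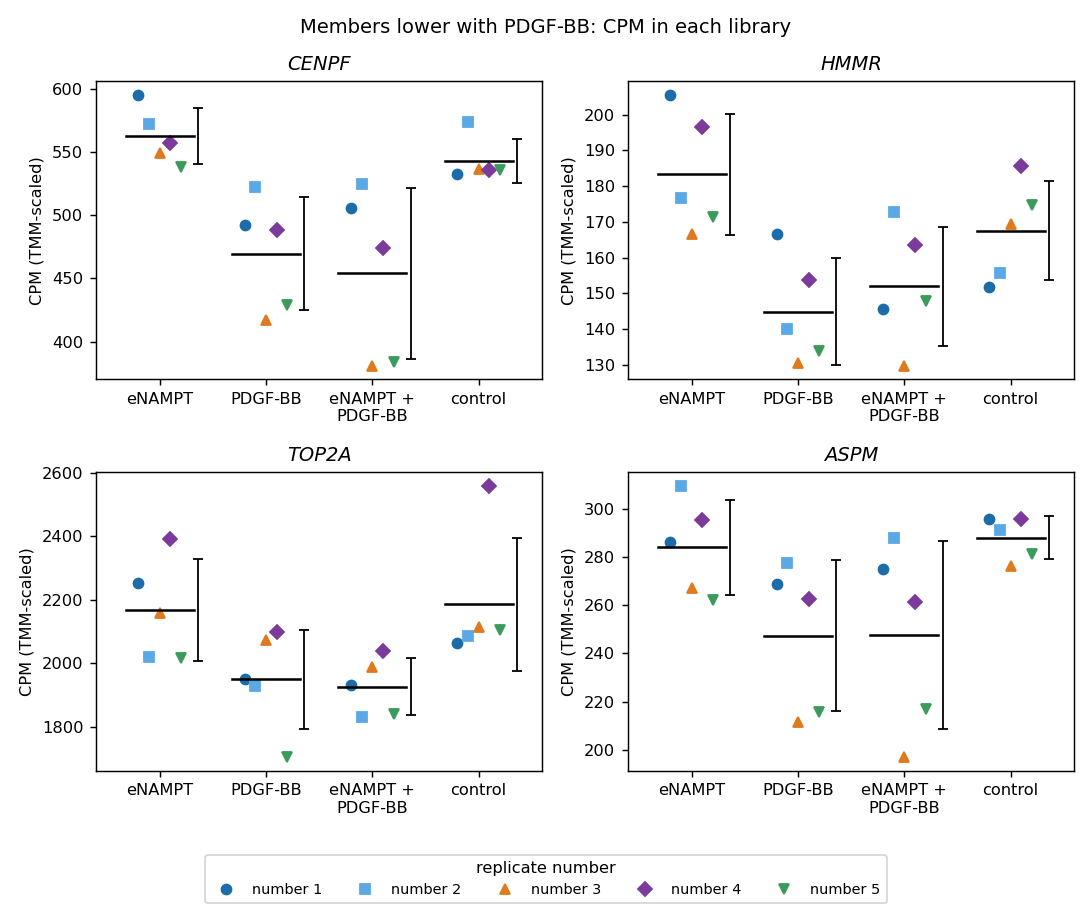
CPM of CENPF, HMMR, TOP2A and ASPM in each library (points, shaped and coloured by replicate number), with the group mean (line) and SD (bar, n = 5); the y axes do not start at 0. For CENPF all PDGF-BB libraries lie between 381 and 525 CPM and all others between 532 and 595 CPM, and the other 3 genes show overlap between groups.

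The other 36 mitosis genes did not pass in the pooled comparison. With a term for the replicate number in the fit, DLGAP5 and KIF2C passed as lower too, and 325 of all tested genes passed as lower. Taken by count, 34 of the 40 were negative on the log2 scale with PDGF-BB, as were 52% of all tested genes. The median was -0.08, against -0.01 over all tested genes. At an unadjusted p under 0.05, 9 were lower and 1 higher (6.96% and 8.18% of all tested genes). The single one on the higher side was CENPA, at 0.24 on the log2 scale (SE 0.1, adjusted p = 0.214), and CENPA shares 138 exon bases with SLC35F6 on its own strand, so part of its count is uncertain. The standard error of a mitosis gene in this comparison was 0.064 at the median.

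Among the mitotic cyclins, CDK1 and its activator, all 5 genes had negative values with PDGF-BB and none passed. CCNB1, the cyclin whose binding to CDK1 drives entry into mitosis, had 283, 265, 218, 208 and 206 CPM with eNAMPT, 273, 250.4, 188, 227 and 191 with PDGF-BB, 246, 257, 190.2, 191 and 207 with both, and 262, 277, 192, 194 and 206 in control libraries. CDK1 itself had 211, 195, 207, 227 and 206 CPM with eNAMPT, 194, 209, 217, 231 and 216 with PDGF-BB, 199, 216, 216, 221 and 188 with both, and 198, 205, 222, 229 and 216 in control libraries. The 4 groups overlapped throughout for both, and the pooled log2 fold change was -0.06 (SE 0.077) for CCNB1 and -0.01 (SE 0.052) for CDK1. CDC25C, the phosphatase that activates CDK1, had the largest negative value of the group, -0.25 (SE 0.1, adjusted p = 0.186).

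None of the mitotic kinases passed in any comparison. AURKA, the kinase of centrosome maturation and spindle assembly, had 240.2, 223, 196, 232 and 211 CPM with eNAMPT, 203, 245, 199, 218 and 185 with PDGF-BB, 231, 256, 192, 236 and 198 with both, and 234, 216, 219, 251 and 201 in control libraries. PLK1, which acts from mitotic entry to cytokinesis, had 188, 165, 159, 152 and 159 CPM with eNAMPT, 182, 191, 178, 185 and 139 with PDGF-BB, 161, 153, 158, 180.4 and 132 with both, and 184, 162, 141, 177 and 127 in control libraries. PLK1 was low in the libraries numbered 5 in the PDGF-BB, combination and control groups, and the groups overlapped for both kinases. Their pooled log2 fold changes with PDGF-BB were -0.04 (SE 0.060) and 0.04 (SE 0.068), in that order, and AURKA is the gene whose count differed most between the deposited count tables, with 90.6% of the counts of the other table.

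The chromosomal passenger genes had values closer to 0 than that of TOP2A. AURKB, the passenger kinase that corrects attachments, and BIRC5, the survivin subunit that brings it to centromeres, had pooled log2 fold changes of -0.08 (SE 0.055) and -0.03 (SE 0.051) with PDGF-BB, and neither passed.

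Genes of the spindle checkpoint, which holds anaphase until every chromosome is attached, gave a median log2 fold change of -0.03, and 3 of 5 were negative. BUB3, the checkpoint adaptor with the highest level, had 281, 289.5, 315, 320.4 and 319.9 CPM with eNAMPT, 282, 312, 288, 330.1 and 322 with PDGF-BB, 308, 288, 330, 308 and 287 with both, and 300.5, 325, 312, 307 and 284 in control libraries. Its groups overlapped throughout, with a pooled log2 fold change of 0.00 (SE 0.049). TTK, the kinase that starts the checkpoint signal, had -0.17 (SE 0.085, adjusted p = 0.352), and BUB1B, a subunit of the inhibitor of the anaphase-promoting complex, -0.10 (SE 0.068).

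Of the 4 anaphase control genes, 2 had negative and 2 positive values, with a median of 0.00. PTTG1 had 808, 720.1, 671, 656 and 622 CPM with eNAMPT, 762, 765, 662, 626 and 602 with PDGF-BB, 772, 709, 638, 609 and 593 with both, and 759, 731, 623, 658 and 549 in control libraries. CDC20, the activator of the anaphase-promoting complex, had 294, 288, 261, 234 and 249 CPM with eNAMPT, 282, 273, 251, 195 and 221 with PDGF-BB, 269.9, 240.5, 220.4, 198 and 221 with both, and 301, 246, 224, 216 and 219 in control libraries. Both were highest in library 1 or 2 of every group and lowest in library 4 or 5, so libraries of 1 group differed more than the group means did. The pooled PDGF-BB values were -0.01 (SE 0.060) for PTTG1 and -0.09 (SE 0.067) for CDC20.

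At the kinetochore, where chromosomes bind microtubules, the 4 genes other than CENPA had negative values, and CENPF was the one that passed. NDC80 and NUF2, partners in the complex that grips the microtubule, had pooled log2 fold changes of -0.11 (SE 0.060) and -0.085 (SE 0.063). CENPE, the kinesin that carries chromosomes to the equator, had -0.001 (SE 0.081), the smallest of the group.

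All 6 kinesin motors had negative values with PDGF-BB, with a median of -0.11, and none passed. KIF2C, which depolymerizes microtubules at centromeres, had 152, 177, 145, 158 and 144 CPM with eNAMPT, 118, 154, 132, 126 and 128 with PDGF-BB, 165, 148, 143, 132 and 124 with both, and 154, 167, 151, 138 and 138 in control libraries. PDGF-BB library 2 and combination libraries 1, 2 and 3 lay within the range of the libraries without PDGF-BB. The rest with PDGF-BB lay below that range, and the pooled log2 fold change of KIF2C was -0.15 (SE 0.062, adjusted p = 0.186). KIF20A, which brings the passenger complex to the midzone, had -0.14 (SE 0.061, adjusted p = 0.25), and KIF4A, the chromokinesin of the midzone, -0.10 (SE 0.060).

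The spindle assembly genes were the group with the lowest median, -0.16, with all 6 negative and 2 called, HMMR and ASPM. TPX2, which activates AURKA on microtubules and was the highest of them, had 406, 414, 369, 353 and 406 CPM with eNAMPT, 382, 443, 361, 309.9 and 357 with PDGF-BB, 433, 434, 314, 334 and 374 with both, and 433, 435, 360.5, 368 and 374 in control libraries. Its libraries overlapped between groups, and its value was -0.07 (SE 0.062). DLGAP5, which stabilizes kinetochore fibres, had -0.18 (SE 0.089, adjusted p = 0.317), and CKAP2, a microtubule stabilizer, -0.14 (SE 0.060, adjusted p = 0.208).

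Of the midzone and cytokinesis genes, ANLN, the scaffold of the contractile ring, had 400.3, 393, 385, 406 and 375 CPM with eNAMPT, 385, 376, 357, 353 and 346 with PDGF-BB, 357, 386, 327, 353 and 318 with both, and 385, 373, 377, 357 and 341 in control libraries. Combination libraries 3 and 5 were the lowest and the eNAMPT libraries were mostly high, and the pooled log2 fold change with PDGF-BB was -0.09 (SE 0.047, adjusted p = 0.346). ECT2, the exchange factor that activates RhoA at the ring, had -0.06 (SE 0.068) and PRC1, which bundles midzone microtubules, -0.01 (SE 0.064).

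**Figure D2:**
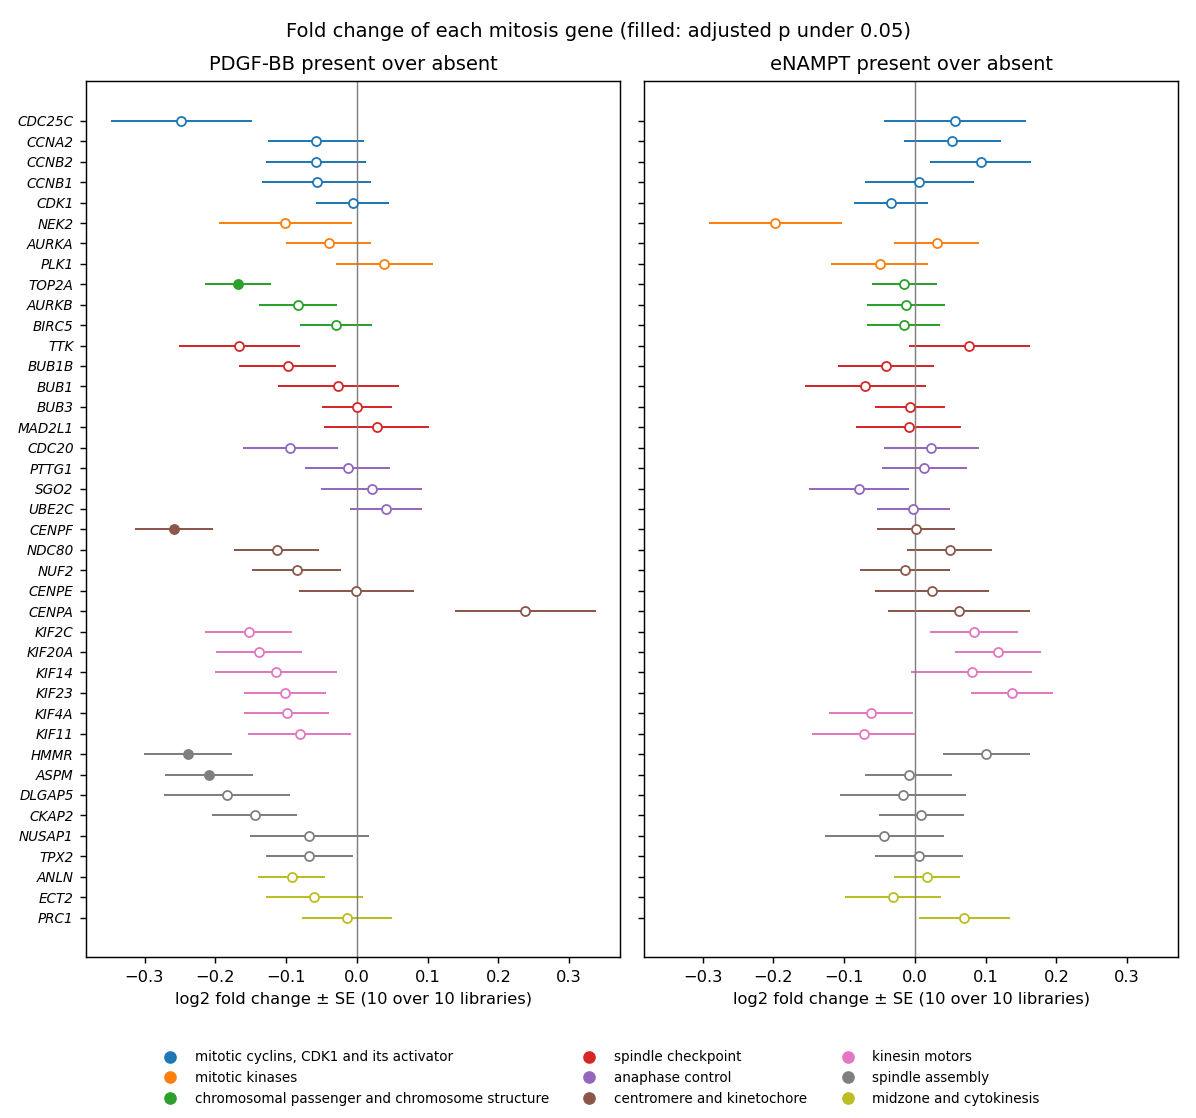
Pooled log2 fold change of each mitosis gene with PDGF-BB (left) and with eNAMPT (right), 10 libraries with the agent over 10 without; bars are standard errors and colours are roles. On the left 34 of 40 points lie below 0 and the 4 filled ones passed; on the right 19 of 40 lie below 0 and none passed.

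The comparisons of PDGF-BB alone with control and of both agents with eNAMPT alone have no library in common. With PDGF-BB alone no mitosis gene passed (edgeR, where 1.21% of all tested genes did, and 0 also by DESeq2 and limma-voom). That changed with a term for the replicate number in the edgeR fit, where CENPF, TOP2A and ASPM passed as lower. Of all tested genes, 78 passed as lower there. Without that term, 9 were lower at an unadjusted p under 0.05 and none higher (4.08% and 5.57% of all tested genes). Negative values numbered 31 (51.2% of all tested genes were negative), with a median of -0.08. With both agents against eNAMPT alone, CENPF fell by 0.31 on the log2 scale (SE 0.077, adjusted p = 0.0226) and was the single mitosis gene that passed, against 0.347% of all tested genes that fell. In that comparison 8 mitosis genes were lower at an unadjusted p under 0.05 and none higher (4.7% and 6.17% of all tested genes). Negative values numbered 32 (50.4% of all tested genes were negative), with a median of -0.07. With the replicate term 7 mitosis genes passed there, all lower, and 152 of all tested genes passed as lower. The value was negative in both comparisons for 24 of the 40 genes, or 60% of them, against 31.1% of all tested genes. With 31 and 32 of the 40 negative in the separate comparisons, an overlap of about this size follows from those counts alone. The lower share over all tested genes goes with their lower shares of negative values, 51.2% and 50.4%. The overlap therefore does not show that the same mitosis genes moved in both comparisons.

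CENPF had 0.865 times the control level with PDGF-BB alone (log2 fold change -0.21, SE 0.077, adjusted p = 0.263) and 0.808 times the eNAMPT level with both. The call with both agents was lost without eNAMPT library 1 (adjusted p = 0.0847), eNAMPT library 2 (0.0534), combination library 3 (0.128) or combination library 5 (0.111), and under spike-in scaling (0.633, at a larger negative value of -0.44). HMMR was next in the comparison of both agents with eNAMPT alone at -0.27 (SE 0.087, adjusted p = 0.128), and TOP2A followed at -0.17 (SE 0.065, adjusted p = 0.244).

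With PDGF-BB alone the smallest p-values belonged to KIF23, the kinesin of the centralspindlin complex, and to KIF20A. KIF23 had 139, 128, 132, 150.5 and 152 CPM with eNAMPT, 107, 119, 128, 129 and 112 with PDGF-BB, 136, 156, 138, 149 and 132 with both, and 139.8, 125, 150, 133 and 147 in control libraries. KIF20A had 124, 122, 129, 112 and 112 CPM with eNAMPT, 104, 108, 93.1, 101 and 95.5 with PDGF-BB, 126, 133, 112, 101 and 110.1 with both, and 122, 129.8, 114, 119 and 105 in control libraries. For both genes the PDGF-BB libraries were mostly the lowest, while the libraries with both agents stood at the level of control and eNAMPT libraries. Against control, PDGF-BB alone gave -0.22 (SE 0.083, adjusted p = 0.26) for KIF23 and -0.23 (SE 0.087, adjusted p = 0.262) for KIF20A, and the groups overlapped.

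Both agents together against control gave no mitosis gene past the threshold by edgeR, against 1.98% of all tested genes. DESeq2 gave 0 and limma-voom 1, CENPF. With the replicate term in the edgeR fit CENPF, TOP2A and ASPM passed as lower, and 125 of all tested genes did. In the main fit, at an unadjusted p under 0.05, 4 were lower and 1, CENPA, was higher (4.95% and 5.98% of all tested genes). Negative values numbered 33 (51.1% of all tested genes were negative), with a median of -0.07. CENPF stood at -0.26 on the log2 scale (SE 0.077, adjusted p = 0.0794) and TOP2A -0.18 (SE 0.065, adjusted p = 0.185), and for both all 5 combination libraries lay below all 5 control libraries, against 1.18% of all tested genes. ASPM had -0.22 (SE 0.087, adjusted p = 0.282), with all 5 combination libraries below the control mean. CENPF passed without combination library 1 (adjusted p = 0.0431) or combination library 2 (0.0202). The controls are shared with the comparison of PDGF-BB alone, so the values of these comparisons are not independent.

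No mitosis gene passed with eNAMPT alone against control, where 0.0743% of all tested genes passed (edgeR; 0 also by DESeq2 and limma-voom). None reached an unadjusted p under 0.05, which 3.61% of all tested genes did. Of the 40 genes, 18 had negative values (50.2% of all tested genes were negative), and the median was 0.01. The 95% interval (1.96 standard errors on each side) held 0 for all 40, and over all of them ran from -0.52 for NEK2 at the low end to 0.38 for CCNB2 at the high end, so larger changes than these lay outside the interval of every mitosis gene.

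The smallest p-values with eNAMPT alone belonged to NEK2, CCNB2 and BUB1. NEK2, the kinase that separates centrosomes, had 55.0, 52.0, 46.6, 38.6 and 43.1 CPM with eNAMPT, 60.8, 49.7, 53.2, 44.4 and 43.4 with PDGF-BB, 61.1, 53.6, 38.4, 38.1 and 38.5 with both, and 62.1, 63.6, 56.1, 53.7 and 46.1 in control libraries. CCNB2, a B-type cyclin, had 153, 167, 132, 139.9 and 142 CPM with eNAMPT, 138, 152, 129, 113 and 127 with PDGF-BB, 148, 156, 124, 111 and 126 with both, and 154, 152, 109, 116 and 117 in control libraries. BUB1, the kinase that recruits checkpoint and cohesion proteins to kinetochores, had 70.4, 78.0, 57.2, 78.4 and 56.8 CPM with eNAMPT, 70.0, 88.7, 62.4, 66.1 and 63.9 with PDGF-BB, 65.3, 100.2, 70.5, 68.3 and 57.5 with both, and 80.2, 77.2, 74.5, 78.8 and 77.5 in control libraries. NEK2 was below and CCNB2 above the control mean in all 5 eNAMPT libraries, BUB1 control libraries were the tightest group, and all these groups overlapped. Their log2 fold changes were -0.26 (SE 0.132), 0.18 (SE 0.101) and -0.19 (SE 0.120), in that order, each with an adjusted p of 1.

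Adding eNAMPT to PDGF-BB likewise gave no mitosis gene past the threshold (0.0578% of all tested genes; 0 by DESeq2 and limma-voom), and 2 were higher and 1 lower at an unadjusted p under 0.05 (1.78% and 1.62%). The 2 were KIF23, at 1.2 times the level with PDGF-BB alone (log2 fold change 0.26, SE 0.082, adjusted p = 1), and KIF20A, at 1.16 times (0.21, SE 0.087, adjusted p = 1). KIF23 was the single mitosis gene higher without overlap, against 0.322% of all tested genes. SGO2, shugoshin 2, which protects centromeric cohesin, was the 1 on the lower side at -0.22 (SE 0.1, adjusted p = 1). SGO2 had 103, 99.2, 82.0, 109 and 95.0 CPM with eNAMPT, 97.1, 107, 85.8, 122 and 112 with PDGF-BB, 81.3, 92.9, 78.7, 105 and 89.1 with both, and 101, 80.7, 90.3, 104 and 89.7 in control libraries. PDGF-BB libraries 4 and 5 were its highest values and the groups overlapped.

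Over both settings, no mitosis gene passed for eNAMPT present against absent (0.157% of all tested genes; 0 by DESeq2 and limma-voom), and at an unadjusted p under 0.05 KIF23 was higher and NEK2 lower (1.88% and 1.75%). Their log2 fold changes were 0.14 (SE 0.058) for KIF23 and -0.20 (SE 0.094) for NEK2, and the median over the 40 genes was 0.00. The interaction, which asks whether the eNAMPT effect differs with and without PDGF-BB, called no mitosis gene and none of all tested genes (0%; 0 mitosis genes by DESeq2 and limma-voom). At an unadjusted p under 0.05 it had KIF23 on the positive side at 0.25 (SE 0.116, adjusted p = 0.999) and SGO2 on the negative side at -0.29 (SE 0.142, adjusted p = 0.999), against 1.59% and 1.76% of all tested genes. ANLN was next at -0.16 (SE 0.093).

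Taken as a mean of log2 CPM over the 40 genes, the libraries stood at 7.35, 7.29, 7.23, 7.27 and 7.2 with eNAMPT, 7.22, 7.31, 7.09, 7.17 and 7.12 with PDGF-BB, 7.25, 7.33, 7.08, 7.16 and 7.11 with both, and 7.32, 7.31, 7.22, 7.26 and 7.18 in control libraries. The group means spanned 0.086, and the SD within groups was 0.078. In every group the highest library was number 1 or 2 and the lowest number 3 or 5, and PDGF-BB library 2 and combination library 2 stood as high as the libraries without PDGF-BB.

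**Figure D3:**
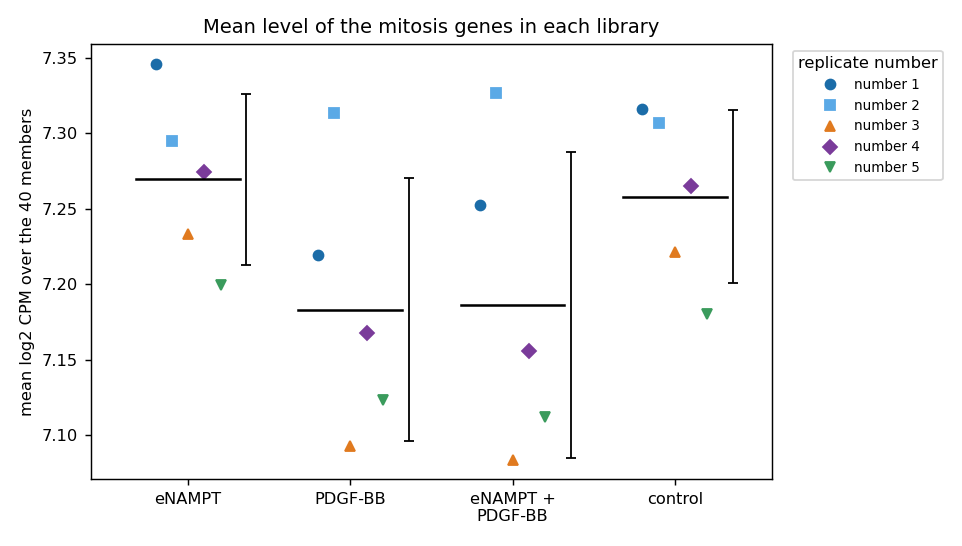
Mean log2 CPM of the 40 mitosis genes in each library (points, by replicate number), with group means (lines) and SD (bars, n = 5); the y axis does not start at 0. The groups with PDGF-BB have lower means and overlap with the others through their libraries numbered 1 and 2.

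Mitosis genes did not all move together across libraries. Over 20 libraries, the Pearson correlation of log2 CPM, taken as deviations from group means, had a median of 0.24 over 780 pairs, with 158 pairs above 0.5 and 16 below -0.5. CENPF and ASPM were the most alike (r = 0.93), followed by BIRC5 and CDC20 (r = 0.89). CDC20 and CENPE were the most opposed (r = -0.72), and CDK1 and CDC20 nearly as much (r = -0.71). Each pair shares its libraries, scaling and depth, and these values are a description.

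**Figure D4:**
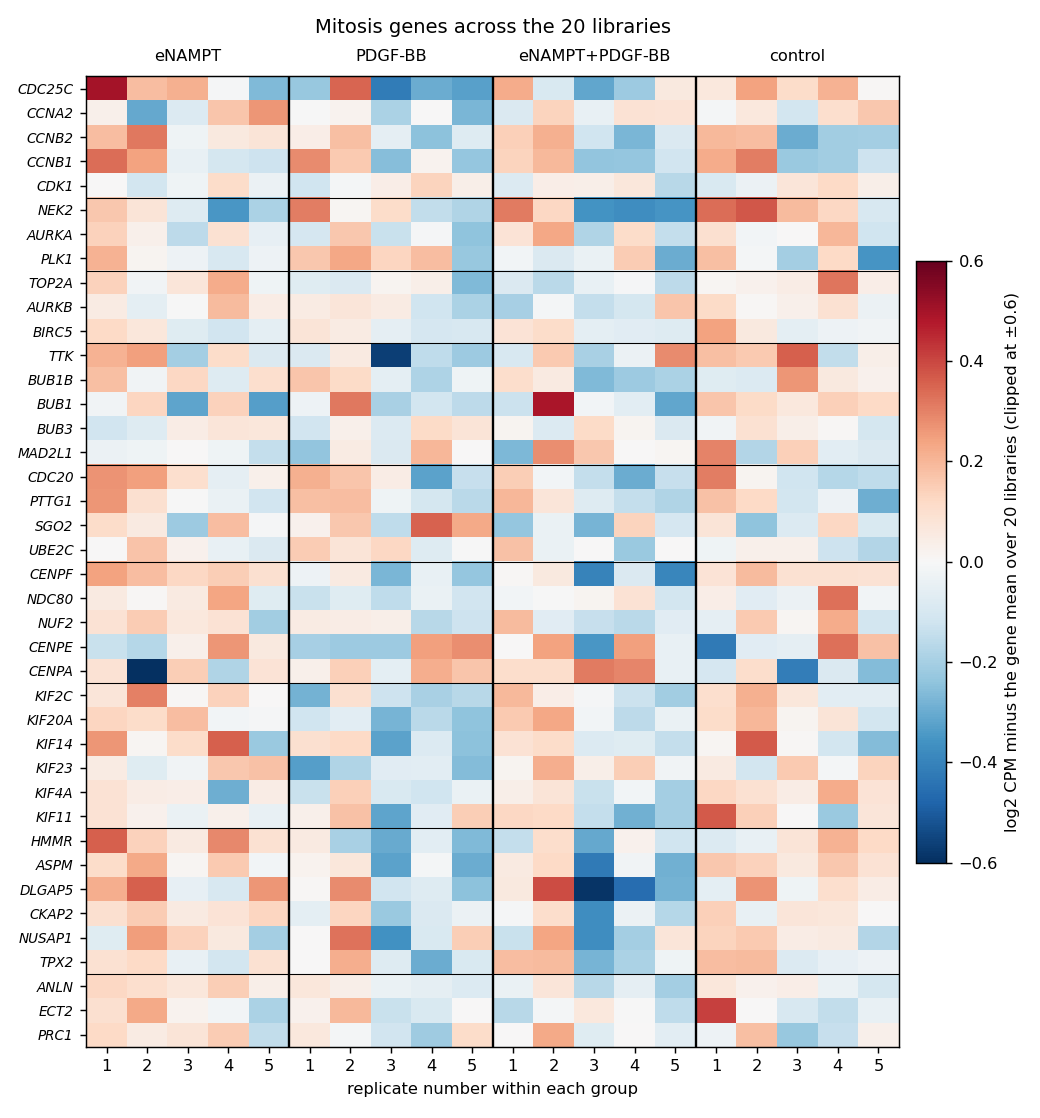
Log2 CPM of each mitosis gene minus its mean over 20 libraries, with genes ordered by role and libraries by group and replicate number. Combination library 3 and PDGF-BB library 3 are low (blue) for DLGAP5, ASPM, CKAP2 and NUSAP1, while CENPA is high (red) in combination libraries 3 and 4.

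Outside the list, the gene whose deviations from its group means were most like the mean deviation of the mitosis genes was CYP1B1, a cytochrome P450 (r = 0.89 over 20 libraries), followed by AHNAK (r = 0.88), OLFML1 (0.86), PPP1R14A (0.85), XRN1 (0.84), SHC1 (0.84), GGPS1 (0.83), SMIM14 (0.83), S100A4 (0.82) and NUCKS1 (0.81). Only genes with a mean of at least 10 CPM were ranked, and likeness here reflects shared variation between libraries of the same group.

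Promoter windows of RefSeq, running from 250 bases before to 50 after a gene's start, were found for 34 of the 40 genes, as 42 windows on GRCh38.p14. AURKA, BIRC5, BUB3, TPX2, TTK and UBE2C were not matched. The core of the cell cycle genes homology region, TTTGAA, was in 26 windows (61.9%), against 15.2% of 35116 windows of all genes, and CCAAT, bound by NF-Y, was in 32 (76.2%), against 34.6%, on either strand in both cases. Windows with both numbered 21 (50%), against 5.9% of all windows. A pair of CCAAT boxes on 1 strand with starts 31 to 33 bases apart was in 5 windows (11.9%), against 0.849% of all.

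The windows of the 4 genes that passed as lower with PDGF-BB are shown. That of CCNB2, which did not pass, is added as an example with boxes at regular spacing. Capitals mark TTTGAA and CCAAT or their reverse complements, TTCAAA and ATTGG, and each sequence runs 5′ to 3′ on the gene's own strand. A match describes these letters and is not evidence of a bound factor.
CENPF, chr1:214602945-214603244, plus strand: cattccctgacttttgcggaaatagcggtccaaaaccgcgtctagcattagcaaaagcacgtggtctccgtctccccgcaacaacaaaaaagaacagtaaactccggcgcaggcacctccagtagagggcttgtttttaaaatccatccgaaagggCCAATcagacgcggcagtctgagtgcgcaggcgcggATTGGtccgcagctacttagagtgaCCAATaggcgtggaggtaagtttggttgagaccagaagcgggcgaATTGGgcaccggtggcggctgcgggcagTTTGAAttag
HMMR, chr5:163460382-163460681, plus strand: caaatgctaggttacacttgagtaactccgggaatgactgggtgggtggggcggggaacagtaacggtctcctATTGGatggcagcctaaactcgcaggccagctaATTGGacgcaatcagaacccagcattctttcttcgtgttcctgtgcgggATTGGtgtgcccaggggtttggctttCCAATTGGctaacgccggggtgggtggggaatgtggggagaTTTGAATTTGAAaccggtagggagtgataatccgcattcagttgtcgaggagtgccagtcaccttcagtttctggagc
TOP2A, chr17:40417847-40418146, minus strand: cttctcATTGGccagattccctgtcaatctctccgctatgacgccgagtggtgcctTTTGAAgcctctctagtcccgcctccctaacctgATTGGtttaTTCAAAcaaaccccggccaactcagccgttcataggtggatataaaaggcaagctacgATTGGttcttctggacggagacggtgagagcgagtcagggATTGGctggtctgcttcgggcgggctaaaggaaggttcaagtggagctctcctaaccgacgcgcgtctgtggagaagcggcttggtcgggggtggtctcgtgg
ASPM, chr1:197146620-197146919, minus strand: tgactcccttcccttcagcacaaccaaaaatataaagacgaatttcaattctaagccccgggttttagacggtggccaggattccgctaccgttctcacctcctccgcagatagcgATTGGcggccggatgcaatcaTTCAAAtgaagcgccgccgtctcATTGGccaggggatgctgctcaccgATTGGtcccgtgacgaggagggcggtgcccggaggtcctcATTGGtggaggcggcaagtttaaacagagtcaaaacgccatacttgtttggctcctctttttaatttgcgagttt
CCNB2, chr15:59104896-59105195, plus strand: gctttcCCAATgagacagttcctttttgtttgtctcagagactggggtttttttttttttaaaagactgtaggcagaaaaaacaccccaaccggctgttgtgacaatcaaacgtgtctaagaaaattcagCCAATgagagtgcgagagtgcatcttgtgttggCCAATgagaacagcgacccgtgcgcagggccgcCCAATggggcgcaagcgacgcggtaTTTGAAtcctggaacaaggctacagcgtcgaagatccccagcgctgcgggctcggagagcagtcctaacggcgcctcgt
CENPF held 4 CCAAT and 1 TTTGAA, the latest of them 40 bases past the start. HMMR held 5 CCAAT, of which the pair nearest the start overlaps by 2 bases on opposite strands, and 2 TTTGAA at 28 and 22 bases before the start. TOP2A had 4 CCAAT and 2 TTTGAA, and ASPM 4 CCAAT and 1 TTTGAA. CCNB2 had CCAAT at 120, 87 and 54 bases before the start, beside 1 farther from it, and TTTGAA at 29 bases before it.

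**Figure D5:**
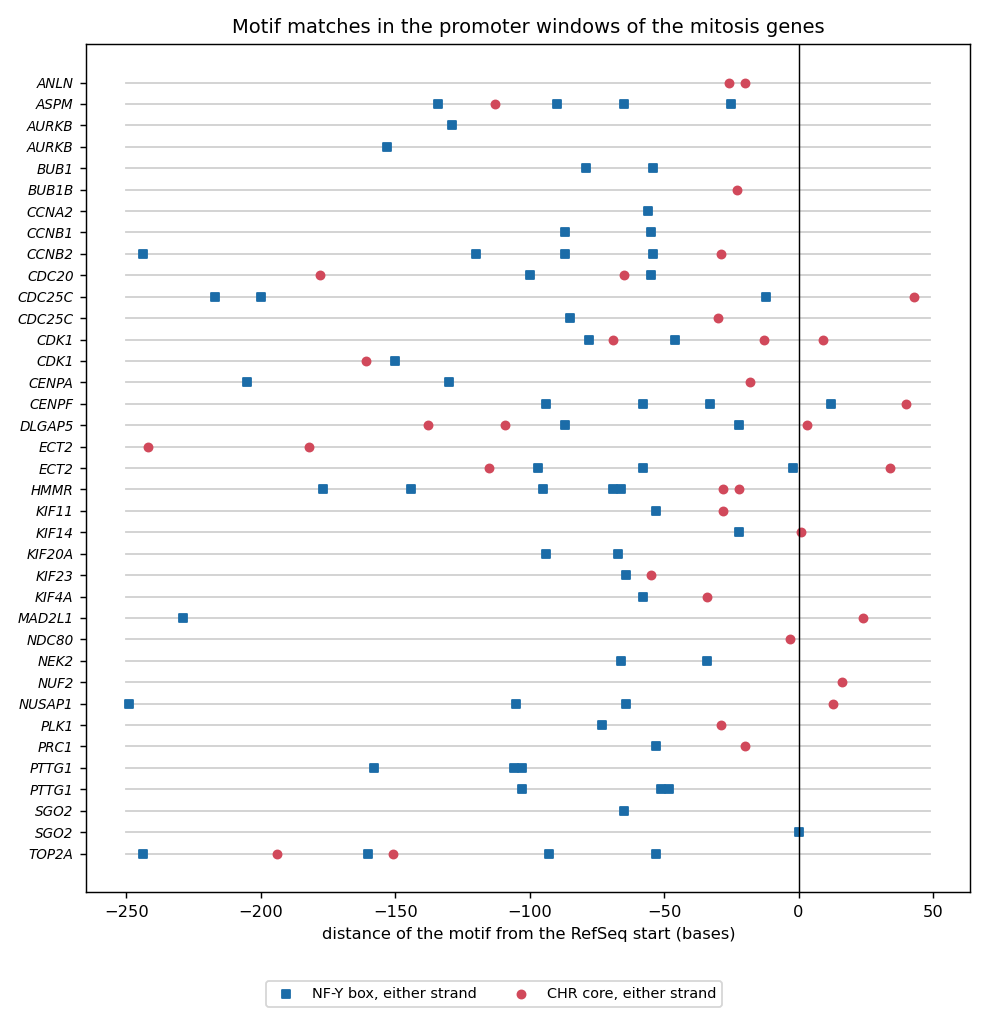
Position of each match to the NF-Y box (CCAAT, squares) and to the core of the cell cycle genes homology region (CHR, circles) in the 37 promoter windows with a match; the x axis is the distance in bases from the RefSeq start, and a gene with several windows has a line for each. CENPF, HMMR, TOP2A and ASPM each have marks of both kinds.

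Other genes of the cell cycle were read beside the 40. Of 40 further mitosis genes, all tested, 1 fell with PDGF-BB over both settings and none rose, against 1.01% and 2.96% of all tested genes. The 1 was KNL1, the kinetochore scaffold that recruits checkpoint proteins. KNL1 had 107 ± 10.2 CPM with PDGF-BB and 101 ± 12.1 CPM with both, against 122 ± 13.1 CPM with eNAMPT and 122 ± 9.95 CPM in control libraries (SD, n = 5). Its log2 fold change was -0.23 (SE 0.066, adjusted p = 0.0307). The median of the 40 further genes was -0.10, and 33 of 40 had negative values, against 52% of all tested genes. At an unadjusted p under 0.05, 14 of them were lower and none higher, against 6.96% and 8.18% of all tested genes. None passed for eNAMPT over both settings, and their median there was -0.003.

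The regulators of mitosis genes and the genes of S phase showed no call in any of the 8 comparisons. Of 12 regulators of the DREAM, MuvB, B-MYB and FOXM1 group, 10 were tested and their median log2 fold change with PDGF-BB was -0.01. The smallest p among them was that of LIN52, a MuvB subunit, for eNAMPT over both settings (0.32, SE 0.126, adjusted p = 1). All 25 genes of S phase entry and replication were tested, with a median of 0.02 for PDGF-BB, and SLBP, the histone mRNA binding protein, had the smallest p for eNAMPT (0.23, SE 0.072, adjusted p = 0.615).

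Regulators of G1 moved in both directions with PDGF-BB. Of 12 tested, 3 rose and 1 fell over both settings, against 2.96% and 1.01% of all tested genes. MYC, a transcription factor of growth, had 37.4 ± 6.15 CPM with PDGF-BB and 41.5 ± 6.53 CPM with both, against 26.0 ± 1.51 CPM with eNAMPT and 25.5 ± 3.44 CPM in control libraries (SD, n = 5; log2 fold change 0.61, SE 0.098, adjusted p = 2.49e-05). CCND1, cyclin D1, which drives G1 progression, rose as well (0.44, SE 0.065, adjusted p = 4.8e-06). CDKN1A, the CDK inhibitor p21, rose (0.72, SE 0.097, adjusted p = 8.86e-07), and CDKN2C, an inhibitor of CDK4 and CDK6, fell (-0.46, SE 0.083, adjusted p = 0.000198). Of the pericyte markers, CSPG4, the NG2 proteoglycan, rose with PDGF-BB (0.28, SE 0.078, adjusted p = 0.0272). Among markers of other cell types, the smallest p belonged to TEK (endothelial, eNAMPT against control, adjusted p = 1) and CD68 (leukocyte, interaction, adjusted p = 0.999).

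The authors' deposited table gives the group named first over the other. In it 1 mitosis gene was under an adjusted p of 0.05, CENPF in eNAMPT over both agents (0.28, adjusted p = 0.0102). Of all genes in it, 205 were under that threshold in the same comparison. The authors' deposited table gave no mitosis gene under that threshold in the other 4 comparisons. The smallest adjusted p was 0.0664 for CENPF in control over both agents (247 of all genes were under the threshold). It was 0.169 for KIF23 in control over PDGF-BB (162 of all genes) and 0.887 for KIF23 in both agents over PDGF-BB (9 of all genes). In control over eNAMPT, 8 of all genes were under the threshold.

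Strand use in counting is not stated, and 16 of the 40 genes share exon bases with another annotated gene. The largest overlaps were those of NUSAP1 (62.2% of its exon bases, with a read-through model that had no counts) and PRC1 (57.6%, with a gene of 8 counts over all libraries). CDC25C shares 8.78% of its exon bases with FAM53C, CCNA2 9.08% with EXOSC9 and KIF20A 3.34% with BRD8, all expressed neighbours on the opposite strand. None of CENPF, TOP2A and ASPM had such an overlap, and HMMR shared 113 bases with its antisense gene, which had no counts. The near copies PTTG2 and KIF4B had 5 and 11 counts over all libraries, against 44745 for PTTG1 and 8121 for KIF4A.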

How the data were processed

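RNA of 20 libraries was sequenced, 5 in each of 4 groups, grouped by the titles. Per the submitters' processing notes, the tools were DESeq2 1.18.1, featureCounts 1.6.4, STAR 2.6.1a and FastQC 0.11.7, with the genome build GRCh38. The authors deposited raw counts per gene in 2 tables, with log2 fold changes and adjusted p-values of 5 comparisons beside one of them; what separates the tables is not stated. Here that table was used, without its 92 ERCC and 7 SIRV spike-in rows, and the other served as an alternative. Identifiers, chromosomes and starts of all 40 genes matched GENCODE 29.

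Genes kept by filterByExpr were fitted with edgeR 4.0.16 (R 4.3.3), TMM scaling and glmQLFit with 1 mean per group, and tested with glmQLFTest, two-sided. The Benjamini-Hochberg adjustment ran over 12111 genes in each of 8 comparisons. Pooled effects average the effect of an agent without and with the other. Levels are TMM-scaled CPM, and log2 CPM has a prior count of 2. Alternatives used DESeq2 1.42.0, limma-voom 3.58.1, RLE and spike-in scaling, other filters on low counts, a replicate term and leaving out each library. The model was tested on simulated data.

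Mitosis genes and lists were chosen with earlier results of these data known. Values by library are given for genes that passed, the 3 smallest p-values of each comparison, the highest gene of each role, and CCNB1, CDK1, PLK1, AURKA, CDC20 and TOP2A. Genes of other lists are named where they passed, or by the smallest p. Titles call the libraries biological replicates without naming separate cultures, so p-values measure the spread between these libraries. With 2894878 to 4011066 gene counts per library, the lowest count behind a mitosis gene was 63. No libraries of 1 group agreed within sampling noise (chi-square per degree of freedom at least 2.62).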

Additional observations from a re-analysis of the deposited data

Results flagged for a closer look

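In 4 of 88 group checks on single genes and list means, 1 library lay far from the other 4 of its group, where chance gives about 1 in 20. BUB1 stood at 88.7 CPM in PDGF-BB library 2, with the nearest at 70.0. CENPF stood at 573.9 CPM in control library 2, with the nearest at 536. PLK1 stood at 139 CPM in PDGF-BB library 5, with the nearest at 178. TOP2A stood at 2559 CPM in control library 4, with the nearest at 2115, and its call for PDGF-BB over both settings was lost without that library (adjusted p = 0.0733), while that of CENPF held without any 1 library.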

How the results depend on the processing

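Spike-in scaling called no mitosis gene (0 for both agents against eNAMPT alone and 0 for PDGF-BB over both settings). It moved the median over all tested genes to -0.142 for both agents against control, -0.154 against PDGF-BB and -0.143 against eNAMPT, to -0.077 for eNAMPT over both settings and to -0.159 for the interaction. The mitosis gene medians moved with them, to -0.208, -0.172, -0.224, -0.083 and -0.165 in the same order, and the mean level with both agents to 7.08. For PDGF-BB over both settings the mitosis gene median was -0.138 under it, against -0.082 with gene counts, and 39 of 40 were negative, with the all-gene median at -0.067. The all-gene count for PDGF-BB over both settings was 129 under it, against 480. Both agents against control gave 1 call by limma-voom and 1 at an adjusted p under 0.10. The other count table put mean levels at 7.01 (eNAMPT), 6.92 (PDGF-BB), 6.93 (both) and 7.00 (control). With 1 library left out, mitosis gene calls ranged from 0 to 1 for both agents against control and from 0 to 2 against eNAMPT. They ranged from 2 to 5 for PDGF-BB over both settings. Calls over all tested genes ranged from 180 to 250, 143 to 205 and 405 to 493, in the same order. Libraries whose loss ended a call are named with the results. No direction of a call reversed. Of 158 medians, mean levels and counts under other settings, 141 were counted as unchanged. The tolerance for that was wide. For PDGF-BB over both settings it let through the mitosis gene median of -0.138 under spike-in scaling. It also let through 6 calls under the replicate block, against 4 in the main fit.

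The replicate numbers shared by the groups were not taken to pair the libraries, since not every same-numbered pair correlated above 0.1. Missing that bar does not show that the libraries are unpaired. Over all tested genes 12 of 30 pairs did (median r = 0.09, lowest 0.001), and no pair was negative. Over the 40 mitosis genes 24 of 30 did (median r = 0.32, lowest -0.086, highest 0.743). As a hint from the data, 10 of 20 libraries were closest to their own number in every other group. The main fit has no term for the number, so variation that goes with it counts there as spread between libraries. With the number as a replicate block, 3 mitosis genes passed for PDGF-BB against control and 3 for both agents against control, in each case CENPF, TOP2A and ASPM. Under that block 7 passed for both agents against eNAMPT (CENPF, TOP2A, HMMR, CDC20, ASPM, DLGAP5 and ANLN) and 6 for PDGF-BB over both settings (CENPF, TOP2A, ASPM, HMMR, DLGAP5 and KIF2C), and every one of these values was negative. All-gene counts under the block were 377, 510, 511 and 958 of 12111, in that order, of which 78, 125, 152 and 325 were lower. At this depth the standard error of a mitosis gene in a comparison of 5 with 5 libraries ran from 0.065 to 0.144.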

Other observations

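Levels of many mitosis genes went with the replicate number given in the titles, and the labels do not say what libraries of 1 number share. In a split of each gene's log2 CPM, the number took 43.6% of the variation at the median of the 40 genes and treatment 16.7%, against 25.9% and 15.0% over all tested genes. These are raw shares of the sum of squares, and noise alone also takes a part of each. The treatment share is therefore not the size of an effect. The number took more than 50% in 16 of the 40 (40%), against 13.2% of all tested genes. PTTG1 averaged 775.5, 731, 648.5, 637 and 591 CPM in libraries numbered 1 to 5 over the 4 groups (number 89.9% of its variation). CCNB1 averaged 266, 262, 197, 205 and 203 CPM (86.9%), and BIRC5 329, 315, 288, 284 and 287 CPM (83.8%).

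CENPE and CDK1 had their highest means at number 4 in place of 1 or 2. CENPE averaged 205, 225, 210.2, 280.1 and 252 CPM (61.2%), and CDK1 200.4, 206, 215, 227 and 206 CPM (59.1%). The number took more than treatment in 28 of the 40 (70%), against 67% of all tested genes. Treatment took more in CENPF, KIF23, HMMR and KIF20A, among others (56.1% against 27.6% in CENPF, 53.7% against 7.89% in KIF23). These shares are descriptions of 20 libraries, and no test was made of them.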
